A study of Mus musculus with 24 samples.

Results

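The dorsal striatum (DS) and the nucleus accumbens (Acb) of rpS6 phospho-deficient knockin mice were compared in their polysome-bound mRNA, gene by gene. The members were chosen by label, as the 3 libraries of heavy polysomal RNA from the Acb of knockin mice and the 3 from their DS, which makes 6 of the 24 libraries of the study. In the knockin line (rpS6 P-/-) every phosphorylatable serine of ribosomal protein S6 is replaced by alanine, a germline change that all cells of the animal carry. Animals were males and females of a mixed C57Bl/6, Sv129 and ICR background and their age is not given in the sources used here. The remaining libraries cover the same regions in wild-type littermates, and whole lysates of both genotypes. Each library was made from pooled mice, so p-values measure the spread between 3 pools a region. The Acb was cut from a more anterior coronal section than the DS, so that region and section level cannot be told apart.

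The DS and the Acb are the dorsal and ventral divisions of the striatum. Most neurons of both are GABAergic medium-sized spiny neurons (MSNs), of which the direct pathway class carries dopamine D1 receptors and the indirect pathway class D2 receptors. The DS is innervated mainly by sensorimotor and associative cortex and is known for its part in action selection and habit, whereas the Acb receives limbic input and is known for its part in reward and motivation. Heavy polysomes are mRNAs loaded with several ribosomes, recovered from the dense part of a sucrose gradient, and their RNA reports what is being translated rather than all mRNA of the tissue. Ribosomal protein S6 is a component of the small ribosomal subunit that is phosphorylated in response to neuronal activity.

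Libraries held between 14948045 and 33704038 assigned reads in the Acb (median 17864933) and between 14964662 and 27128209 in the DS (median 21502608). The short brain RNA Bc1 took 0.897 to 2.102% of these reads in the Acb and 1.765 to 3.717% in the DS. Transcripts of the Y chromosome were found in all 6 libraries, for instance 277 to 1214 reads of Ddx3y, whereas Xist, which is expressed from the inactive X chromosome of females, had 43, 205 and 22 reads in the Acb and 114, 71 and 0 in the DS. Xist reads differed between pools of the same region, and their part in the regional differences was not tested. Ppp1r1b, which encodes the MSN phosphoprotein DARPP-32, was abundant in every library of both regions (1420 to 2097 CPM, the reads of a gene per reads of its library on a common scale).

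Rps6, the gene that carries the mutations (chr4:86854099-86857367, GRCm38.p6), had 425, 421 and 367 CPM in the Acb and 400, 392 and 396 CPM in the DS. The regions overlapped, with means of 404 ± 32.3 and 396 ± 4.20 CPM (SD, n = 3). The log2 difference, given here and throughout as Acb over DS, was 0.03 ± 0.16 with an adjusted p of 0.922. Unless another test is named, every adjusted p is from the edgeR quasi-likelihood test with Benjamini-Hochberg adjustment over all genes tested. The value after the ± of a log2 difference is an approximate standard error (SE). It was taken as the size of the log2 difference over the square root of its F statistic. Such an SE is unreliable where a group is near 0 reads. The log2 difference of Rps6 turned to -0.00696 without the first Acb library. With a trend on transcript length removed it was 0.588 (adjusted p 0.0115), and Rps6 was called higher in the Acb under 2 alternatives. In whole lysates of knockin mice Rps6 had 413.1, 407.5 and 369.7 CPM in the Acb and 302.1, 279.1 and 287.9 CPM in the DS. The log2 difference there was 0.454 ± 0.096 (adjusted p 0.000807), without overlap. The difference between the polysomal and the lysate value was -0.389 (adjusted p 0.253). Since single residues are replaced, a count per gene does not check the genotype.

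Of 16108 genes with enough reads to be tested, 2997 had an adjusted p under 0.05, which is 18.6% of the genes. Of these, 1271 were higher in the Acb (7.89%) and 1726 were lower (10.7%). An unadjusted p under 0.05 was found for 5160 genes (32%), and the libraries of the regions did not overlap for 5883 genes (36.5%). The count stayed between 2056 and 3005 when any 1 of the 6 libraries was left out. The median log2 difference of all genes was 0.01. As bulk tissue was used, fewer cells of a type and less RNA per cell cannot be told apart for any of them.

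**Figure D1:**
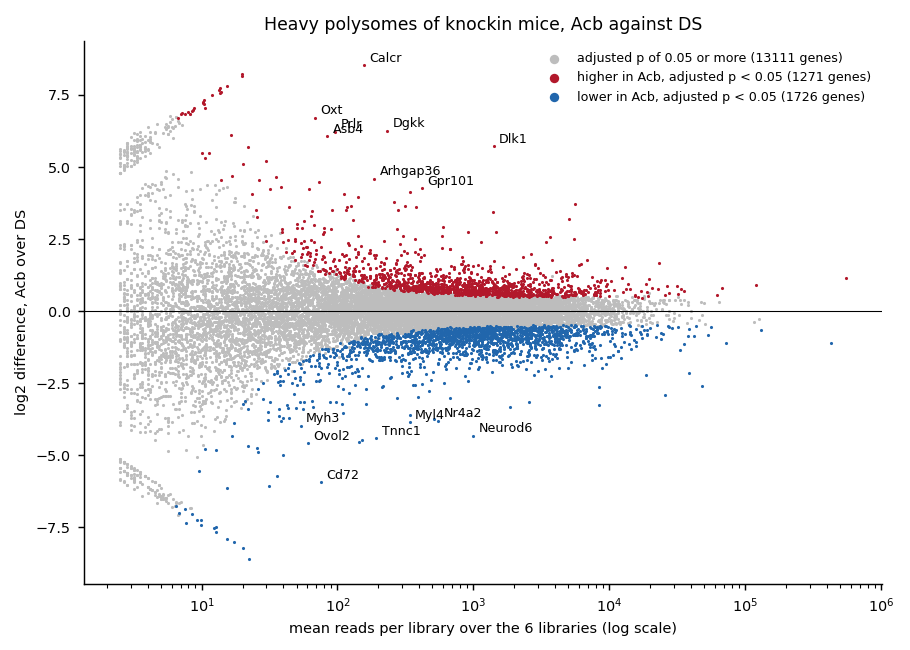
Log2 difference of each gene between Acb and DS in heavy polysomes of knockin mice (vertical axis) against its mean reads per library over the 6 libraries (horizontal axis, log scale). Each point is 1 of 16108 genes, coloured where the adjusted p was under 0.05 (1271 higher in Acb, 1726 lower) and the named genes with the largest differences are labelled, from Calcr at 8.53 to Cd72 at -5.94.

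The genes with the largest differences toward the Acb encode receptors, a hormone precursor and signalling proteins. Calcr, the calcitonin receptor (chr6:3685678-3764713), had 11.4, 12.5 and 18.1 CPM in the Acb and 0, 0 and 0.0972 CPM in the DS. This corresponds to 942 reads against 2, a ratio of 429 with a 95% counting interval of 118 to 3550. Calcr was thus close to absent from DS polysomes, and the fitted log2 difference of 8.53 ± 0.62 (adjusted p 9.30e-09) depends on how near-zero groups are handled. Oxt, which encodes the oxytocin precursor (chr2:130574519-130577054), had 4.94, 6.70 and 5.33 CPM in the Acb against 0, 0 and 0.146 CPM, with 406 reads against 3 and a ratio of 123 (95% counting interval 41.9 to 600). Intervals of this kind cover counting error only.

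Dlk1, a Notch-family ligand expressed from the paternal allele (chr12:109452485-109463336), had 122, 118 and 131 CPM in the Acb and 2.28, 1.65 and 3.16 CPM in the DS. The Acb libraries lay close together and far above the DS libraries, with a log2 difference of 5.72 ± 0.25 (adjusted p 6.10e-12). Dgkk, a diacylglycerol kinase, had 20.3, 23.7 and 13.8 CPM against 0.402, 0.113 and 0.292 CPM (log2 difference 6.25 ± 0.43, adjusted p 9.11e-09). Prlr, the prolactin receptor, had 6.42, 9.02 and 8.83 CPM against 0.335, 0.0375 and 0 CPM (6.23 ± 0.70, adjusted p 4.29e-06). The orphan receptor Gpr101, whose DS libraries ranged from 0.875 to 3.01 CPM, stood at 37.5, 32.7 and 38.0 CPM in the Acb (4.26 ± 0.33, adjusted p 2.00e-08). Asb4 (6.06), Arhgap36 (4.60) and the uncharacterised transcripts A730046J19Rik (4.49) and A230065H16Rik (4.23) completed the 10 genes with the largest log2 differences. A730046J19Rik was the least certain of them, with 4.87, 8.99 and 1.83 CPM against 0, 0.6004 and 0 CPM and an adjusted p of 0.00147 in edgeR and 0.06004 in DESeq2.

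The 10 genes with the largest differences toward the DS were of several kinds. Neurod6, a basic helix-loop-helix factor of cortical excitatory neurons (chr6:55677818-55681263), had 6.49, 2.01 and 5.87 CPM in the Acb and 84.7, 89.2 and 102 CPM in the DS (log2 difference -4.32 ± 0.31, adjusted p 9.30e-09). Nr4a2, an orphan nuclear receptor enriched in the claustrum and in deep cortical layers (chr2:57106830-57124003), had 2.23, 3.27 and 5.17 CPM against 50.9, 42.8 and 56.9 CPM (-3.81 ± 0.27, adjusted p 9.30e-09). Neither gene overlapped between regions.

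Myl4, a myosin light chain, had 1.96, 2.84 and 1.18 CPM in the Acb and 24.1, 30.4 and 35.0 CPM in the DS (-3.86 ± 0.31, adjusted p 3.69e-08). Tnnc1, the slow skeletal and cardiac troponin C, had 1.29, 0.974 and 0.162 CPM against 10.8, 15.2 and 25.8 CPM (-4.42 ± 0.47, adjusted p 2.29e-06). The embryonic myosin heavy chain Myh3 was lower as well, at -3.98. Cd72, a receptor known from B lymphocytes, was read in 1 of the 3 Acb libraries (0, 0.229 and 0 CPM) and in all 3 DS libraries (5.22, 10.5 and 4.38 CPM), with a log2 difference of -5.94 ± 0.76. The zinc finger factor Ovol2 (-4.58) and the transcripts 9130024F11Rik (-4.55), C730002L08Rik (-4.46) and Gm11549 (-3.73) completed the list.

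Genes known to mark the ventral striatum were mostly higher in the Acb. This list, like the others, was chosen with earlier results of these data known, so its count is not an independent check. Of 15 ventral marker genes tested, 11 were higher and 0 were lower, against 7.89 and 10.7% of all genes. These shares of all genes hold for every list below. The median log2 difference of the ventral markers was 2.40 beside 0.01 for all genes. Nts, the precursor of neurotensin, had 103, 132 and 90.4 CPM in the Acb and 9.10, 8.52 and 12.5 CPM in the DS (3.43 ± 0.22, adjusted p 4.04e-09). Wfs1, which encodes the endoplasmic reticulum protein wolframin, had 282, 234 and 278 CPM against 47.3, 50.5 and 52.4 CPM (2.40 ± 0.18, adjusted p 1.15e-08). Peg10, a paternally expressed gene derived from a retrotransposon, had 443, 463 and 479 CPM against 41.6, 31.1 and 32.3 CPM (3.72 ± 0.19, adjusted p 7.47e-11).

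The calcium-binding protein gene Calb2 (2.73), the tachykinin Tac2 (2.49), the peptide precursor Cartpt (1.93), the thyroid hormone-binding protein gene Crym (1.78) and Zcchc12 (1.64) were also higher, besides Calcr, Dlk1 and Arhgap36. The 4 ventral markers that did not pass were Nnat, Tmem158, Oprk1 and Drd3. Nnat, which encodes neuronatin, had 439, 264 and 207 CPM in the Acb and 190, 224 and 304 CPM in the DS, so that the regions overlapped (log2 difference 0.34 ± 0.23, adjusted p 0.334). In whole lysates of knockin mice its log2 difference was 1.83, and the difference between the polysomal and the lysate value was -1.47 (adjusted p 5.78e-05). These values do not take coding length into account, and its part in them was not tested. With a trend on coding length removed from each library, 12 of the 15 ventral markers were higher.

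Of 7 dorsal striatal marker genes tested, 6 were lower in the Acb and 0 were higher, with a median log2 difference of -1.34. Coch, which encodes the secreted protein cochlin, had 15.01, 9.82 and 15.8 CPM in the Acb and 70.2, 90.9 and 55.8 CPM in the DS (-2.42 ± 0.23, adjusted p 5.55e-07). Cnr1, the cannabinoid receptor CB1, had 122, 141 and 124 CPM against 416, 564 and 419 CPM (-1.85 ± 0.18, adjusted p 6.21e-07). Reln, the extracellular glycoprotein reelin, had 21.3, 14.98 and 19.1 CPM against 65.6, 47.2 and 54.8 CPM (-1.60 ± 0.21, adjusted p 2.29e-05). The 3 genes stood apart in every library. The retinoid X receptor Rxrg (-1.34), Gpr155 (-0.76) and Rasgrp2 (-0.55) were lower, whereas the retinoic acid receptor Rarb had a log2 difference of -0.06 (adjusted p 0.842).

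**Figure D2:**
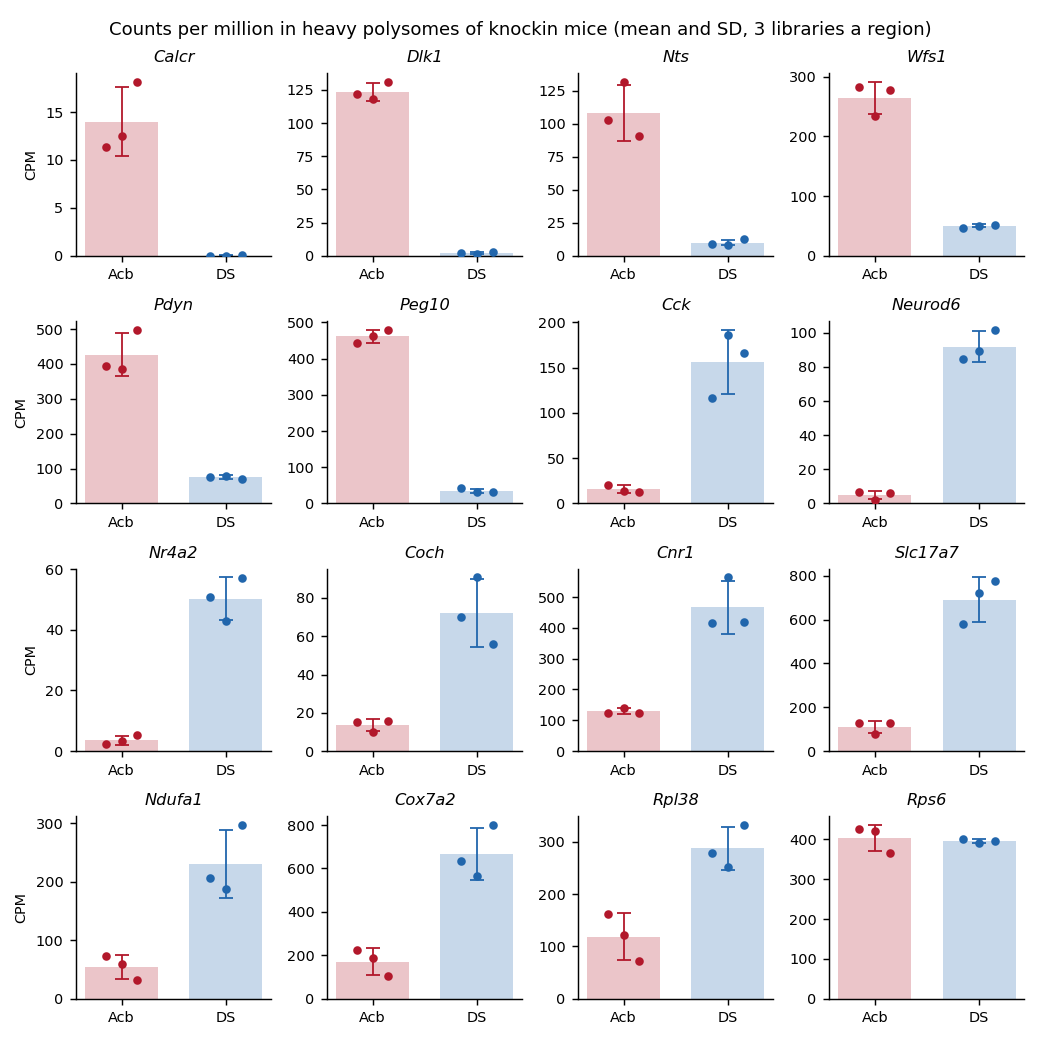
CPM of 16 genes in heavy polysomes of knockin mice. Bars show the mean of 3 libraries, error bars the SD and points the libraries, in Acb (red) and DS (blue), on a linear axis from 0 that differs between genes. Calcr, Dlk1, Nts, Wfs1, Pdyn and Peg10 were higher in each Acb library, Cck, Neurod6, Nr4a2, Coch, Cnr1, Slc17a7, Ndufa1, Cox7a2 and Rpl38 in each DS library, and Rps6 overlapped (404 and 396 CPM).

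Genes known from the direct and the indirect pathway were set beside 7.89% of all genes higher and 10.7% lower. Of 10 direct pathway genes, 3 were higher in the Acb and 1 was lower (median log2 difference 0.35), the latter near the share of all genes, and of 10 indirect pathway genes, 3 were higher and 2 were lower (median 0.47), a count of 3 that became 1 without the third Acb library. The lower direct pathway gene, Eya1, was called without DS replicate 2 but not when any other library was left out, nor with the replicate block. Pdyn, which encodes prodynorphin, had 395, 387 and 498 CPM in the Acb and 76.2, 80.1 and 69.1 CPM in the DS (2.51 ± 0.18, adjusted p 9.30e-09). Drd1a, the D1 receptor of the same neurons, overlapped between regions with 279, 324 and 287 CPM against 235, 298 and 217 CPM (0.25, adjusted p 0.349).

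In indirect pathway neurons, Penk, the enkephalin precursor, had 1955, 1664 and 2203 CPM in the Acb and 1018, 1537 and 832 CPM in the DS (0.78 ± 0.20, adjusted p 0.00753). Drd2, the D2 receptor, went the other way, with 63.6, 67.1 and 52.6 CPM against 104, 121 and 143 CPM (-1.004 ± 0.18, adjusted p 0.000621). So did the adenosine receptor Adora2a of the same neurons, with 187, 154 and 136 CPM against 201, 301 and 234 CPM (-0.63 ± 0.19, adjusted p 0.0237). Each of these 3 genes was without overlap between regions. Leaving out 1 library (Acb replicate 2, Acb replicate 3 or DS replicate 2) left 1 of the 2 lower indirect pathway genes called.

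Signalling genes downstream of dopamine receptors were lower in the Acb more often than higher, with 7 lower and 1 higher of 22 tested and a median log2 difference of -0.18. Arpp19, a cAMP-regulated phosphoprotein that inhibits protein phosphatase 2A, had 924, 1017 and 647 CPM in the Acb and 1897, 2164 and 2467 CPM in the DS (-1.33 ± 0.18, adjusted p 3.32e-05). Rasd2, which encodes the striatal GTPase Rhes, had 500, 442 and 463 CPM against 856, 1131 and 972 CPM (-1.07 ± 0.17, adjusted p 0.000127). Rgs4, a regulator of G protein signalling, had 671, 711 and 816 CPM against 1480, 1408 and 1166 CPM (-0.88 ± 0.16, adjusted p 0.000684). All 3 were without overlap.

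Gng7, the gamma subunit of the striatal G protein that couples dopamine and adenosine receptors to adenylyl cyclase, had 632, 410 and 383 CPM in the Acb and 802, 1025 and 1016 CPM in the DS (-0.997 ± 0.19, adjusted p 0.00104). Arpp21 (-0.86), Rgs9 (-0.75) and Rasgrp2 (-0.55) completed the 7. In whole lysates Gng7 had a log2 difference of 0.12 and Arpp21 one of 0.00, and both departed from these on polysomes (adjusted p 0.000579 and 0.00398 for the difference between polysomes and lysates). These values do not take coding length into account, and its part in them was not tested. When a trend on coding length was removed from each library, 6 members of the list were lower and 0 were higher. Gnal, the alpha subunit of the same G protein, was the 1 member that was higher (0.52 ± 0.17, adjusted p 0.0336), and it was not called without either Acb replicate 2, Acb replicate 3, DS replicate 2 or DS replicate 3. Ppp1r1b had 1794, 1420 and 1957 CPM against 1868, 2077 and 2097 CPM, with overlap (-0.22, adjusted p 0.358).

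Of 32 transcription factors of striatal neurons tested, 15 were higher in the Acb and 3 were lower (median log2 difference 0.53). Of all genes 7.89% were higher and 10.7% lower, so the count of 3 was near the share of all genes. Zic1, a zinc finger factor of the septum and ventral forebrain, had 36.7, 40.7 and 53.0 CPM in the Acb and 9.17, 9.68 and 9.63 CPM in the DS (2.19 ± 0.22, adjusted p 8.59e-07). Lhx8, a LIM homeobox factor of cholinergic neurons, had 22.6, 25.4 and 18.4 CPM against 6.36, 2.33 and 7.10 CPM (2.09 ± 0.33), and Tcf7l2, an effector of Wnt signalling, differed by 1.78 ± 0.30. The homeobox factor Onecut2 was the most reduced, with 9.81, 10.0 and 4.20 CPM against 32.4, 26.1 and 33.1 CPM (-1.93 ± 0.28, adjusted p 7.27e-05), followed by Rxrg and Nr2f1 (-0.99). The homeobox genes Dlx1 (0.95), Dlx2 (0.97), Dlx5 (0.81) and Isl1 (0.85) and the forkhead gene Foxp2 (0.80) were higher, while Foxp1 (-0.40, adjusted p 0.0871) and Bcl11b (0.38, adjusted p 0.1325) did not pass.

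Among 32 neuropeptide precursors, 10 were higher in the Acb and 4 were lower, beside 7.89 and 10.7% of all genes. The count of 4 was near the share of all genes. The median of -0.03 was near that of all genes and changed sign under several alternatives. Among these, it was 0.25 with a trend on transcript length removed and 0.49 with a trend on coding length removed. With the replicate block and the transcript length trend removed it was 0.76. Under each of these alternatives 13 precursors were higher. Besides Oxt, Nts, Pdyn, Tac2, Cartpt and Penk, the precursors of galanin (Gal, 4.06), thyrotropin-releasing hormone (Trh, 1.93), corticotropin-releasing hormone (Crh, 1.44) and nociceptin (Pnoc, 1.30) were higher. Gal had 5.75, 10.9 and 9.05 CPM in the Acb and 0, 0.751 and 0.681 CPM in the DS (adjusted p 9.47e-05). Cck, the cholecystokinin precursor, had 20.9, 13.6 and 12.3 CPM in the Acb against 117, 186 and 166 CPM in the DS (-3.33 ± 0.23, adjusted p 9.19e-09). Cort (-2.40), Vip (-1.49) and Adcyap1 (-1.14) were the other precursors that were lower. The overlapping precursors Tac1 (0.27), Sst (0.34) and Npy (-0.08) did not pass.

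Genes for secretory granules and the processing of prohormones were higher where they differed, with 6 higher and 0 lower of 13 (median 0.45). The shares of all genes were 7.89% higher and 10.7% lower. Scg2, secretogranin II, had 409, 378 and 493 CPM in the Acb and 140, 151 and 121 CPM in the DS (1.64 ± 0.18, adjusted p 2.46e-06). Chga (1.05), Vgf (0.9995), the amidating enzyme Pam (0.71), carboxypeptidase E (Cpe, 0.60) and Scg3 (0.58) were also higher, whereas Chgb (-0.14, adjusted p 0.625) and the convertase Pcsk2 (-0.20, adjusted p 0.5035) did not pass.

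Receptors for peptides and steroids were higher in the Acb for 11 of 34 members and lower for 4 (median 0.65). Of all genes 7.89% were higher and 10.7% lower, so the count of 4 was near the share of all genes. Trhr, the receptor of thyrotropin-releasing hormone, had 24.5, 29.99 and 30.2 CPM in the Acb and 2.01, 0.6004 and 2.33 CPM in the DS (4.14 ± 0.36, adjusted p 1.21e-07). Npy2r, a neuropeptide Y receptor, had 19.8, 25.2 and 21.4 CPM against 2.34, 1.58 and 1.95 CPM (3.52 ± 0.29, adjusted p 4.88e-08), and the neurokinin receptor Tacr3 differed by 2.03. For 3 receptors no DS library had a read. With 3 reads over the DS libraries as the floor, the vasopressin receptor Avpr1a (118 reads in the Acb) was at least 35.8-fold higher, the cholecystokinin receptor Cckar (93 reads) at least 28.2-fold and the glucagon-like peptide receptor Glp1r (81 reads) at least 24.6-fold. The somatostatin receptors Sstr3 (-1.35) and Sstr2 (-1.03), the cholecystokinin receptor Cckbr (-1.07) and the progesterone receptor Pgr (-0.76) were lower.

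Of 12 serotonin receptors, 3 were higher and 0 were lower (median 0.76), beside 7.89 and 10.7% of all genes. Htr2c had 153, 194 and 207 CPM in the Acb and 50.3, 53.9 and 37.9 CPM in the DS (1.97 ± 0.19, adjusted p 7.47e-07). Htr4 had 11.8, 10.3 and 11.4 CPM against 2.95, 3.04 and 0.924 CPM (2.27 ± 0.39), and Htr7 differed by 1.28. Without the first Acb library 1 member of the list was called lower. Of 13 receptors for dopamine, opioids, cannabinoids and adenosine, 4 were lower (Cnr1, Drd2, Adora2a and the A1 receptor Adora1, -0.84) and 1 was higher, the nociceptin receptor Oprl1 (0.74), beside 10.7% of all genes lower and 7.89% higher, and the median was 0.06. Oprl1 was not called without Acb replicate 2 or DS replicate 3.

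GABA receptor subunits were higher for 7 of 16 members and lower for 0 (median 0.38), beside 7.89 and 10.7% of all genes. The count of 7 fell to 4 without the second Acb library. Gabrg1, the gamma 1 subunit, had 93.6, 122 and 111 CPM in the Acb and 14.3, 23.3 and 10.9 CPM in the DS (2.74 ± 0.24, adjusted p 1.23e-07). Gabrq, the theta subunit, had 7.64, 10.4 and 12.4 CPM against 1.21, 1.05 and 0.195 CPM (3.65 ± 0.49). The epsilon subunit Gabre had 82 reads in the Acb and none in the DS, which is at least 24.9-fold higher. Of 17 ionotropic glutamate receptor subunits, 6 were higher and 1 was lower (median 0.23), among them the AMPA receptor subunits Gria1 (0.71 ± 0.17) and Gria3 (-0.53 ± 0.17), the latter called without Acb replicate 3 but not when any other library was left out.

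Potassium channel subunits were higher for 6 and lower for 4 of 49 (median 0.13), beside 7.89 and 10.7% of all genes, but once a trend on coding length was removed, 7 were higher and 8 lower (median -0.03). Kcnip2, which encodes a modulator of Kv4 channels, had 184, 131 and 127 CPM in the Acb and 342, 337 and 376 CPM in the DS (-1.26 ± 0.18, adjusted p 6.72e-05), and Kcnd3, a Kv4 channel, went the other way (1.12 ± 0.18).

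Markers of cholinergic interneurons were higher for 6 of 9 members and lower for 0 (median 0.96). Ecel1, an endopeptidase of these cells, had 50.58, 50.95 and 76.24 CPM in the Acb and 19.8, 17.4 and 15.9 CPM in the DS (1.75 ± 0.21, adjusted p 1.13e-05). The transporters Slc10a4 (1.62), Slc17a8 (0.96) and Slc5a7 (0.77), the last of which takes up choline, and the homeobox gene Gbx2 (3.04) were higher, while Chat, the enzyme that makes acetylcholine, had 7.03, 6.44 and 9.96 CPM against 5.89, 2.29 and 4.57 CPM and did not pass (0.89 ± 0.38, adjusted p 0.111).

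Of 12 genes of GABAergic interneurons, 5 were higher and 2 were lower (median 0.51). The 5 became 3 without Acb replicate 3 or DS replicate 2, and the 2 became 1 without Acb replicate 2, Acb replicate 3 or any DS library. With a trend on transcript length or on coding length removed, 7 were higher and 1 was lower (medians 0.72 and 0.77). Pvalb, the calcium-binding protein of fast-spiking interneurons, had 19.5, 37.8 and 7.38 CPM in the Acb and 55.2, 68.8 and 90.3 CPM in the DS (-1.72 ± 0.35, adjusted p 0.00168). Its Acb libraries varied more than those of most genes named here but stayed below the DS. Th, tyrosine hydroxylase, was higher (1.25 ± 0.33).

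Imprinted genes are expressed from the allele of 1 parent. They were higher in the Acb for 12 of 25 members and lower for 1 (median 0.82), beside 7.89 and 10.7% of all genes. Besides Calcr, Asb4, Dlk1 and Peg10, these included Magel2 (3.32), Ndn (1.25) and Grb10 (1.14). Ndn, which encodes the growth suppressor necdin, had 456, 268 and 381 CPM in the Acb and 152, 156 and 155 CPM in the DS. Grb10, an adaptor that restrains insulin signalling, had 84.1, 96.6 and 120 CPM against 45.5, 43.6 and 48.0 CPM. The 1 lower member was the non-coding RNA Meg3 (-0.56 ± 0.16), which was not called without Acb replicate 2 or DS replicate 1.

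Of 20 immediate early genes, whose transcription follows neuronal activity, 4 were lower in the Acb and 1 was higher (median -0.26), beside 10.7 and 7.89% of all genes. Besides Nr4a2, these were Bdnf, the neurotrophin gene, with 5.34, 5.07 and 4.95 CPM in the Acb and 37.8, 28.0 and 24.3 CPM in the DS (-2.55 ± 0.25, adjusted p 6.28e-07), Homer1 (-0.75) and Egr3 (-0.61). Fosl2, Arc, Egr1 and Nr4a1 did not pass, and Junb was higher with overlap between the regions (0.91 ± 0.27), a call that was lost without Acb replicate 3, DS replicate 2 or DS replicate 3. The number of higher members was 3 without Acb replicate 2 and 2 without DS replicate 1. Bdnf and Nr4a2 are also expressed in cortical neurons, and the part of cortical tissue in their differences was not tested.

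Markers of other cells that the dissections could hold differed between regions. Of 14 markers of cortical excitatory neurons, 10 were lower in the Acb and 0 were higher (median -2.30), and their summed level was 950 to 1166 CPM in the Acb and 4049 to 5587 CPM in the DS. Slc17a7, the vesicular glutamate transporter of cortical neurons, had 128, 79.9 and 127 CPM against 578, 722 and 774 CPM (-2.63 ± 0.20, adjusted p 2.61e-08). Nrgn, which encodes neurogranin, had 769, 619 and 525 CPM against 2971, 4397 and 4185 CPM (-2.60 ± 0.19), and Neurod2 (-3.01) and Tbr1 (-2.00) were lower too. No cortical marker of the list was at 0 in a whole region, and Lamp5, Rorb, Bcl6 and Cux2 did not pass. The part of cortical tissue in the genes that were higher in the DS, such as Cck, Neurod6, Nr4a2, Bdnf and Nrgn, was not tested.

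In the opposite direction, 6 of 8 markers of septum, pallidum and basal forebrain were higher in the Acb and 0 were lower (median 1.14), with a summed level of 137 to 163 CPM against 56.7 to 70.8 CPM. This count was 3 without Acb replicate 2 or without Acb replicate 3. Choroid plexus markers were higher for 5 of 8 members (summed 190 to 212 against 126 to 161 CPM), but Ttr, the defining transcript of that tissue, stood at or below 6.68 CPM in all libraries and overlapped. Prlr is on the choroid plexus list and Zic1 and Nkx2-1 on the septal list. The part of neighbouring tissues in the genes that were higher in the Acb was not tested. This holds for these genes, for others such as Oxt, Gal, Trh, Calcr and Lhx8, and for the cholinergic markers.

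Astrocyte and microglia markers were higher in the Acb more often than lower. Of 12 astrocyte markers, 7 were higher and 1 was lower (median 0.76), the latter near the 10.7% of all genes. Agt, which encodes angiotensinogen, had 20.8, 23.0 and 20.03 CPM in the Acb and 2.61, 1.24 and 0.875 CPM in the DS (log2 difference 3.80 ± 0.35), whereas the connexin Gja1 and the glutamate transporter Slc1a3 differed by 1.19 each. S100b was the 1 lower member, with 134, 92.3 and 41.9 CPM against 148, 159 and 155 CPM (-0.79 ± 0.27, adjusted p 0.0427), and its call held without Acb replicate 1 but was lost when any other library was left out. With DESeq2, or with a trend on transcript length or on coding length removed, 0 astrocyte markers were lower and 7 were higher. Of 12 microglia markers, 5 were higher and 0 were lower (median 0.46), among them Ctss (0.83). The count was 3 without Acb replicate 1 or Acb replicate 2, and 2 without Acb replicate 3, DS replicate 1 or DS replicate 3.

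Of 12 oligodendrocyte markers, 3 were higher, among them Mag and Cnp, and 1 was lower. The 3 became 1 without Acb replicate 3 or DS replicate 1, and 0 without DS replicate 3, and the summed levels of the list overlapped (5566 to 6125 against 4010 to 6173 CPM). The lower gene was Mobp, which encodes a myelin protein, with 96.9, 77.2 and 53.8 CPM in the Acb and 151, 243 and 173 CPM in the DS (-1.32 ± 0.22, adjusted p 0.000278). Endothelial and mural markers were higher for 1 of 12, Vtn, which is near the 7.89% of all genes, and lower for 0.

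The remaining lists held few calls, to be read against 7.89% of all genes higher and 10.7% lower. Oligodendrocyte precursor markers were higher for 3 of 6 members (median 0.69), and for 1 when any library other than DS replicate 2 was left out. Ependymal markers were higher for 1 of 7, Foxj1, and for 0 to 3 with 1 library left out. Claustrum and endopiriform markers were lower for 2 of 5, Nr4a2 and Ntng2 (-2.24). Acetylcholine receptors were higher for 2 and lower for 2 of 13, and each count was 1 without Acb replicate 1 or DS replicate 1. Metabotropic glutamate receptors were higher for 2 of 7, Grm3 (0.80) and Grm5 (0.69), and for 1 without DS replicate 3. Ephrins and their receptors were higher for 3 and lower for 2 of 19, the latter near the share of all genes, and lower for 0 without Acb replicate 2, Acb replicate 3 or DS replicate 2.

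**Figure D3:**
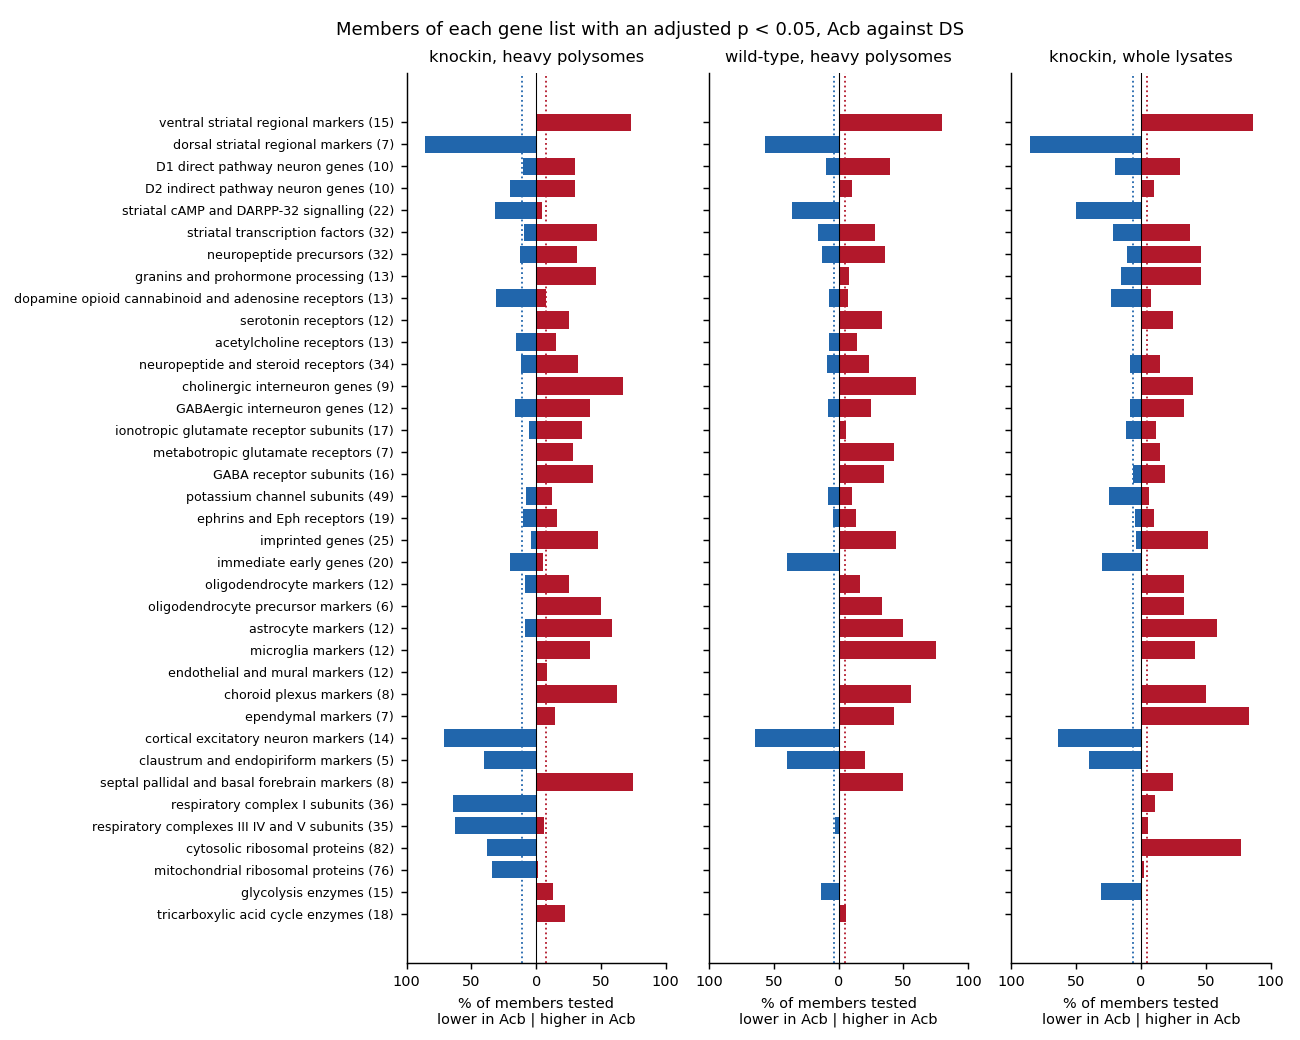
Share of the members of each of 37 gene lists with an adjusted p under 0.05, lower (blue, to the left) or higher (red, to the right) in Acb than in DS, in heavy polysomes of knockin mice, heavy polysomes of wild-type mice and whole lysates of knockin mice. The number in brackets is the count of members tested in knockin polysomes, and dotted lines give the share over all genes (7.89 and 10.7% in the left panel). Subunits of the respiratory chain and ribosomal proteins extend to the left in knockin polysomes, but to at most 1 member of a list in wild-type polysomes and to none in lysates.

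Nuclear-encoded subunits of the mitochondrial respiratory chain formed another large block of genes that were lower in the Acb. Of 36 subunits of complex I, the NADH dehydrogenase, 23 were lower and 0 were higher (median log2 difference -0.75), and of 35 subunits of complexes III, IV and V, 22 were lower and 2 were higher (median -1.03), beside 10.7% of all genes lower. Ndufa1, an accessory subunit of complex I, had 72.7, 59.5 and 31.4 CPM in the Acb and 207, 188 and 297 CPM in the DS (-2.08 ± 0.25, adjusted p 9.87e-06). Cox7a2, a subunit of cytochrome c oxidase, had 226, 186 and 103 CPM against 632, 567 and 801 CPM (-1.96 ± 0.23, adjusted p 8.25e-06). Atp5e, the epsilon subunit of ATP synthase, had 72.6, 39.8 and 29.99 CPM against 170, 166 and 232 CPM (-2.00 ± 0.25, adjusted p 1.73e-05). In each of these genes the third Acb library was the lowest of the 6 and the third DS library the highest.

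Some subunits did not pass. Ndufv1 and Ndufs1, in the core of complex I, differed by 0.44 and 0.25 without passing (adjusted p 0.105 and 0.377), while Ndufv3 was lower (-1.19). The 2 members that were higher, the ATP synthase beta subunit Atp5b (0.55 ± 0.19, adjusted p 0.0443, with overlap) and Uqcrc2 (0.57 ± 0.18, adjusted p 0.0314), both lost their call without Acb replicate 3, DS replicate 2 or DS replicate 3. Enzymes of the tricarboxylic acid cycle were higher for 4 of 18 and lower for 0 (median 0.40), with Idh2 at 33.6, 33.8 and 47.2 CPM against 17.7, 15.7 and 18.5 CPM (1.14 ± 0.21). That count ranged from 2, without Acb replicate 3, DS replicate 2 or DS replicate 3, to 7, without Acb replicate 1 or DS replicate 1. Glycolytic enzymes were higher for 2 of 15, Aldoc (0.93) and Ldhb (0.56), beside 7.89% of all genes, and for 1 without Acb replicate 3, DS replicate 2 or DS replicate 3.

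Cytosolic ribosomal proteins were lower for 31 of 82 genes and higher for 0 (median -0.46), and their summed level was 14340 to 20210 CPM in the Acb and 21850 to 25770 CPM in the DS. Rpl38, of the large subunit, had 162, 122 and 71.6 CPM in the Acb and 278, 252 and 333 CPM in the DS (-1.28 ± 0.23, adjusted p 0.000506). Rps21, of the small subunit, had 139, 79.3 and 55.6 CPM against 203, 197 and 260 CPM (-1.27 ± 0.25, adjusted p 0.00106). Rpl3, among the longest members, had 699, 628 and 744 CPM against 627, 554 and 574 CPM and did not pass (0.24, adjusted p 0.322). These genes have near-identical processed pseudogenes that can share reads, so single values are uncertain. Of 76 mitochondrial ribosomal proteins, 26 were lower and 1, Mrps31, was higher (median -0.38), with Mrpl33 (-1.98) and Mrps21 (-1.75) first. The 26 became 16 without Acb replicate 2, 12 without Acb replicate 3, 15 without DS replicate 2 and 11 without DS replicate 3.

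Many mRNAs of ribosomal proteins begin with a terminal oligopyrimidine tract, a C followed by a run of pyrimidines, which couples their translation to growth signalling. The start of 6 such mRNAs is shown to compare members that were lower with members that did not pass, as the first 20 bases from the annotated start (RefSeq, GRCm38.p6), 5′ to 3′ on the strand of the gene, with the tract in capitals. Rpl38 (chr11:114668580-114668599, plus strand), Rps21 (chr2:180257379-180257398, plus) and Rpl35 (chr2:39005112-39005131, minus) were lower in the Acb, by log2 differences of -1.28, -1.27 and -1.09. Rps6 (chr4:86857348-86857367, minus), Rpl15 (chr14:18270967-18270986, minus) and Rpl14 (chr9:120571517-120571536, plus) had log2 differences of 0.03, -0.06 and -0.21.
Rpl38: CTTTCCCCgttctcttcggt
Rps21: CTCCTgcccaatagtgctgc
Rpl35: CTCTTTCTCTCgaaccaggc
Rps6: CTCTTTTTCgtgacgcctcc
Rpl15: CTTCCTTTCCTCTggcggca
Rpl14: CTTCTCgctgagcgccgcca
Tracts of 5 to 11 bases were found in the first 3 and of 6 to 13 bases in the last 3. A C followed by at least 4 pyrimidines, searched at the annotated start and on the strand of the gene, was found in 13 of the 61 ribosomal protein genes with a start sequence (21.3%), against 813 of 27025 genes (3.01%). It was present in 6 of the 22 that were lower in the Acb (27.3%) and in 7 of the 39 that were not called (17.9%). Annotated starts can miss the base used in the brain, so a gene without a match is not thereby without a tract.

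Genes with short coding sequences were lower more often than longer ones. Over 11974 genes with a coding length and a mean of at least 50 reads, the median log2 difference was -1.15 below 300 nucleotides (210 genes, quartiles -1.53 and -0.78), -0.79 from 300 to 450, -0.42 from 450 to 600 and -0.15 from 600 to 900 nucleotides. It was 0.11 from 900 to 1500, 0.19 from 1500 to 3000 and 0.14 above. In the shortest class, 160 of 210 genes were lower (76.2%) and 2 were higher, while between 1500 and 3000 nucleotides 4.98% were lower and 12.2% higher. Of all genes lower in the Acb with a coding length, 700 of 1611 (43.5%) were shorter than 600 nucleotides, against 34 of 1258 genes that were higher (2.7%) and 1811 of 15094 genes tested (12%).

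Within the ribosomal proteins, coding length and log2 difference followed each other with a Spearman rho of 0.876 across 76 genes that share the same 6 libraries. All 8 members below 300 nucleotides were lower (median -1.23), as were 19 of 25 from 300 to 450 nucleotides (-0.84), 4 of 19 from 450 to 600 (-0.38) and 0 of 24 above (-0.11). Rps6 is among the last. Across all 11974 genes rho was 0.336.

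The size of this gradient differed between libraries. Relative to the mean of the 6 libraries, genes below 300 nucleotides had a median log2 deviation of -0.11, -0.51 and -1.07 in Acb replicates 1, 2 and 3, and of 0.49, 0.49 and 0.83 in DS replicates 1, 2 and 3. The regions were separate, and the Acb libraries were spread more widely than the distance between the nearest libraries of the regions. The median difference of these genes, -1.15 with all libraries, ranged from -0.95 without Acb replicate 3 and -1.04 without DS replicate 3 to -1.38 without Acb replicate 1. When the trend on coding length was removed from each library (an alternative that was added once the data had been seen), the median of the shortest class was -0.04 by construction. The number of lower members then went from 31 to 3 for cytosolic ribosomal proteins (median 0.01), from 23 to 9 for complex I, from 22 to 9 for complexes III, IV and V and from 26 to 8 for mitochondrial ribosomal proteins (median -0.04). With a trend on transcript length removed in its place, 10 cytosolic ribosomal proteins were lower and 9 higher (median 0.02), and 11 subunits of complex I, 15 of complexes III, IV and V and 15 mitochondrial ribosomal proteins were lower.

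**Figure D4:**
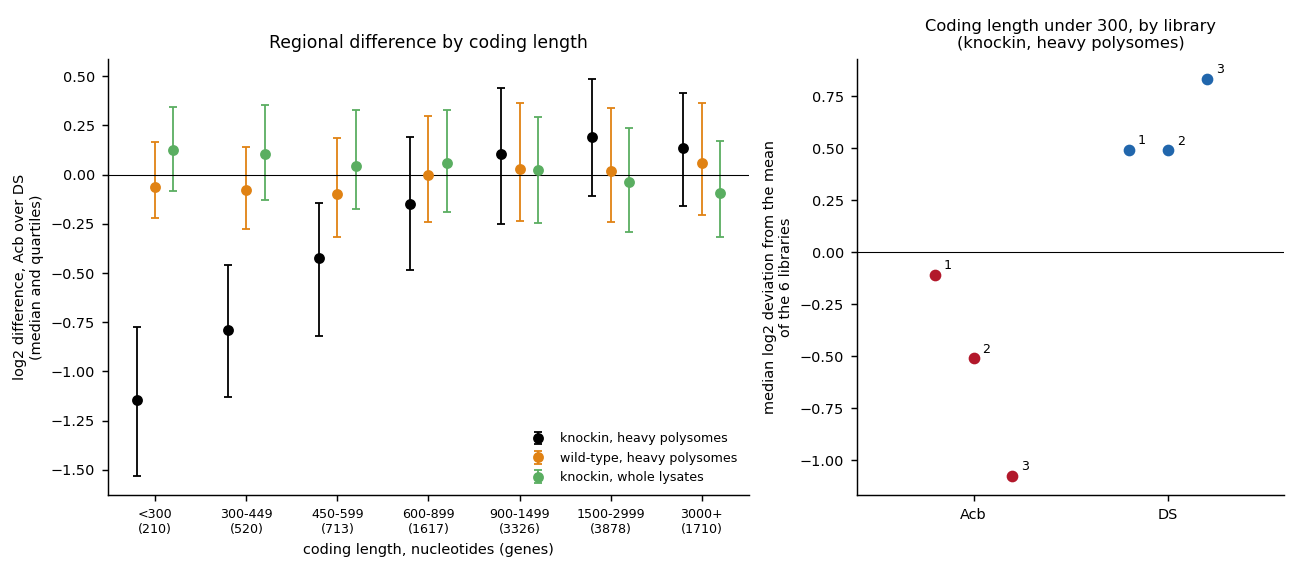
Left, median log2 difference between Acb and DS (points) with quartiles (lines) for genes grouped by coding length in nucleotides, in heavy polysomes of knockin mice (black), heavy polysomes of wild-type mice (orange) and whole lysates of knockin mice (green). Right, median log2 deviation of the 210 genes below 300 nucleotides from the mean of the 6 knockin polysome libraries, 1 numbered point a library. The knockin polysomes climb from -1.15 to 0.19 with length while the other comparisons stay between -0.10 and 0.13, and the 3 Acb libraries lie between -0.11 and -1.07.

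Wild-type heavy polysomes and knockin lysates were set beside these values, as libraries that the comparison above does not use. In wild-type polysomes 1316 of 16143 genes differed between regions (8.15%), with 4.72% higher and 3.43% lower, and 792 genes differed in the same direction in both genotypes, which is 26.4% of the knockin calls and 60.2% of the wild-type calls, with 2 in opposite directions. In knockin lysates 1693 of 15575 genes differed (10.9%), with 4.84% higher and 6.03% lower, of which 782 were shared with the polysomes in the same direction (26.1% of the polysome calls and 46.2% of the lysate calls) and 49 were opposite. An unadjusted p under 0.05 was found for 21% of genes in wild-type polysomes and 21.7% in knockin lysates, and the regions did not overlap for 27% and 26.2%. Heavy polysomes and lysates were made from the same tissue, so these are not independent of each other.

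Ventral markers were higher for 11, 12 and 13 of 15 members in knockin polysomes, wild-type polysomes and knockin lysates, and cortical markers were lower for 10, 9 and 9 members. Dlk1 had log2 differences of 5.72, 4.71 and 5.16, Nts of 3.43, 4.09 and 3.21, and Neurod6 of -4.32, -4.20 and -4.08 in this order.

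Complex I subunits were lower for 23 members in knockin polysomes and for 0 in wild-type polysomes (median -0.08) and 0 in knockin lysates (median 0.14). Cytosolic ribosomal proteins were lower for 31 of 82 in knockin polysomes and for 0 of 82 in wild-type polysomes (median -0.11), and were higher for 62 of 80 in knockin lysates (median 0.43). Ndufa1 had log2 differences of -2.08 in knockin polysomes, -0.01 in wild-type polysomes and 0.01 in knockin lysates. For genes below 300 nucleotides the medians were -1.15, -0.06 and 0.13. Wild-type polysome libraries also stood apart from each other in these genes, with median log2 deviations of 0.39, -0.20 and -0.21 in Acb replicates 1, 2 and 3 and of 0.16, -0.45 and 0.37 in DS replicates 1, 2 and 3, but the regions overlapped.

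**Figure D5:**
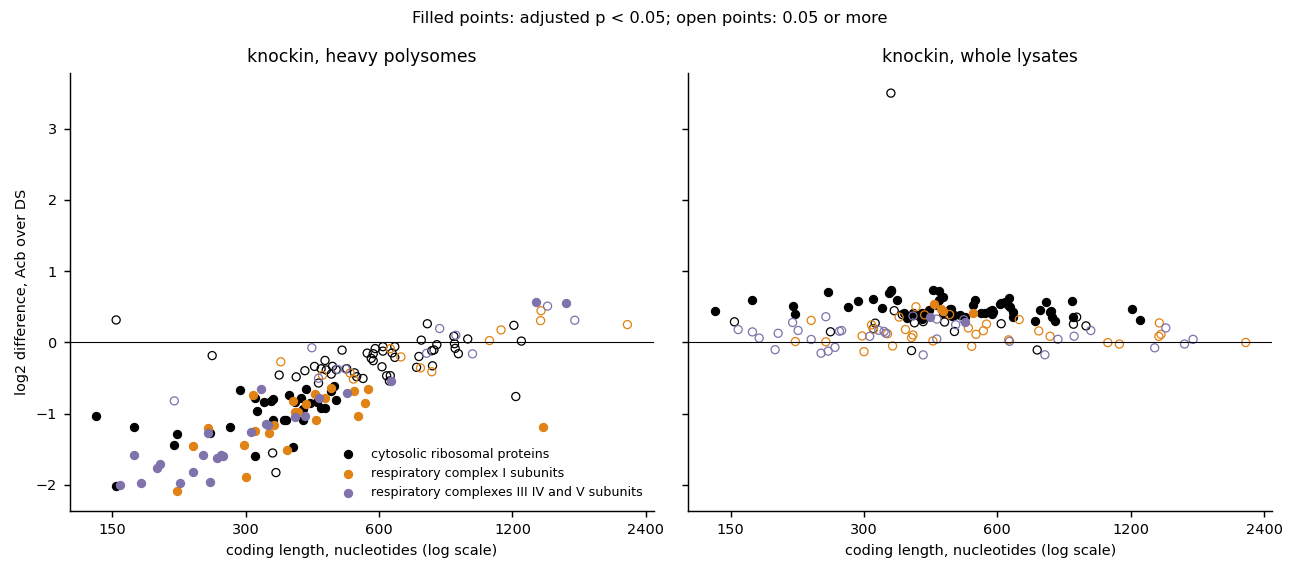
Log2 difference between Acb and DS (vertical axis) against coding length in nucleotides (horizontal axis, log scale) for cytosolic ribosomal proteins (black), complex I subunits (orange) and subunits of complexes III, IV and V (purple), in heavy polysomes (left) and whole lysates (right) of knockin mice. Each point is 1 gene, filled where the adjusted p was under 0.05. On polysomes, ribosomal proteins with a mean of at least 50 reads had a median of -1.23 below 300 nucleotides and -0.11 from 600 nucleotides on. Of the complex I subunits, Ndufa1 lies at -2.08 and Ndufs1 at 0.25. In lysates 62 of 80 ribosomal proteins lie above 0 and filled.

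The difference between the comparisons was tested as an interaction. For knockin against wild-type polysomes, 1 of 16880 genes had an adjusted p under 0.05 (0.00592%), and 2334 had an unadjusted p under 0.05 (13.8%). This gene, Ndufa3, another accessory subunit of complex I (chr7:3617347-3620165), had 58.2, 40.3 and 29.9 CPM in the Acb and 131, 138 and 207 CPM in the DS of knockin mice, and 123, 94.5 and 69.7 CPM against 98.4, 57.2 and 83.9 CPM in wild-type mice. Knockin libraries were separate and wild-type libraries overlapped, with log2 differences of -1.89 and 0.26 and an interaction of -2.12 ± 0.34 (adjusted p 0.0225). Ndufa1, Cox7a2 and Atp5e had interactions of -2.04, -1.85 and -1.98 with an adjusted p of 0.0518 each. The count is unstable, and ranged from 0 to 183 when 1 of the 12 libraries was left out (183 without the first knockin Acb library, 0 without the third). It was 479 with the replicate block, 353 without a filter beyond 1 read and 236 with DESeq2.

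For polysomes against lysates of knockin mice, 977 of 16639 genes had an adjusted p under 0.05 (5.87%), 321 with a positive (1.93%) and 656 with a negative interaction (3.94%), and 3288 had an unadjusted p under 0.05 (19.8%). Among these, 51 of 82 cytosolic ribosomal proteins, 23 of 36 complex I subunits and 23 of 35 subunits of complexes III, IV and V were negative, with medians of -0.93, -0.99 and -1.08 beside 0.08 for all genes, and 0, 0 and 1 were positive. Rps21 had an interaction of -1.95 (adjusted p 3.28e-07) and Cox7a2 one of -1.81 (adjusted p 5.09e-07). Some neuronal genes differed as well, such as Nrgn (-0.93, adjusted p 0.00256) and Kcnip2 (-0.98, adjusted p 0.00200) with negative and Vip (1.54, adjusted p 0.0253) with positive interactions. None of these values takes coding length into account, and genes below 300 nucleotides had a median interaction of -1.23. Without DS replicate 3 of the polysomes the count was 477, and without Acb replicate 3 it was 525.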

How the data were processed

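RNA of heavy polysomal fractions and whole lysates was sequenced by the authors from stranded poly-A libraries. The authors deposited unnormalized counts in 1 table, which covers 24079 genes in 24 libraries. Per the labels and methods they were made with CASAVA 1.8.2, TopHat 2.0.13, Bowtie 2.2.3 and HTSeq 0.6.1p1 on mm10 with UCSC gene models, on the strand opposite to the read. Samples were grouped by their labels.

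A gene entered a comparison with at least 15 reads in all its libraries together. Normalization was by TMM in edgeR, which also gave the CPM, and regions were compared with edgeR 4.0.16 (quasi-likelihood F test of glmQLFit, legacy settings) in R 4.3.3, with Benjamini-Hochberg adjustment over all genes tested and a threshold of 0.05. Interactions were tested over 12 libraries. CPM are not per length, so levels were not compared between genes. Positions and start sequences came from RefSeq (GRCm38.p6) and lengths from GENCODE M21, for 23977 and 23684 genes.

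Genes named are the 10 in each direction with the largest log2 difference among those with an adjusted p under 0.05, a mean of at least 50 reads and no overlap between regions, the 3 in each direction by the same rule for each interaction, Rps6, and members of 37 gene lists, the called members with the largest differences (at most 6 a list) followed by the most abundant ones not called. A few further members, such as the Dlx genes, Kcnd3 and Ndufv3, were named after their values were seen. The gene groups and the lists were chosen with earlier results of these data known. Floors were 3 reads over a group.

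Alternatives were DESeq2 size factors, the filterByExpr filter, no filter beyond 1 read, the Wald test of DESeq2 1.42.0, removal of a trend on transcript length (loess, span 0.5) or, chosen after seeing the data, on coding length, a replicate block with and without the first trend, and leaving out each library. The code was tested on simulated data. limma 3.58.1, Python 3.11.15, pandas 2.3.3 and matplotlib 3.10.9 were also used. Where sources disagree on the number of mice in a pool, none is given here. Some genes are not reported here.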

Additional observations from a re-analysis of the deposited data

Results flagged for a closer look

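By the interaction test of edgeR, the regional difference was not the same in another set of libraries for 977 genes between fractions and 1 between genotypes, and the 7 described here are those with the largest interactions by the naming rule. No cause was tested for any of them. Between genotypes this was Ndufa3, with an interaction of -2.12 (knockin minus wild-type), which was not called under 6 of its 20 alternatives (adjusted p 9.39e-11 to 0.164).

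Between polysomes and lysates of knockin mice the rule gave 6 genes. Hkdc1, a hexokinase, had 0.135, 0.687 and 0.808 CPM in Acb polysomes and 6.49, 6.46 and 4.33 CPM in DS polysomes, and 0 in the 3 Acb lysates against 4.00, 5.82 and 3.51 CPM in the DS, so that its interaction of 6.19 (adjusted p 0.0309) was fitted against a group at 0. Pcdhgc4, a protocadherin, had 2.77, 6.87 and 8.13 CPM in Acb polysomes against 2.08, 0.413 and 0.0486 CPM in the DS, but 5.24, 2.202 and 4.71 against 4.71, 6.06 and 6.15 CPM in lysates (interaction 3.41, adjusted p 0.0106). For Prlr the interaction was 3.12 (adjusted p 0.0298), as its difference was wider on polysomes than in lysates, which had 9.66, 9.21 and 4.61 CPM in the Acb against 0.986, 0.619 and 1.10 CPM.

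Gabrq went the other way (-3.41, adjusted p 0.0151), with 14.5, 6.01 and 13.2 CPM in Acb lysates against 0.164, 0.0619 and 0 CPM in the DS. Zfp783, a zinc finger gene, overlapped between regions on polysomes (3.25, 3.84 and 3.77 against 2.28, 2.70 and 8.22 CPM) but not in lysates (2.994, 3.003 and 8.55 against 0.493, 0.309 and 1.21 CPM), with an interaction of -3.08 (adjusted p 0.0303). Ccdc153, an ependymal marker, behaved likewise, with 9.26, 7.68 and 6.46 against 7.56, 2.03 and 1.80 CPM on polysomes and 7.34, 7.31 and 12 against 0.986, 0.433 and 0.604 CPM in lysates (-2.61, adjusted p 0.0183). Calls were lost under 10 alternatives for Hkdc1, 9 for Prlr, 8 for Zfp783, 8 for Ccdc153, 2 for Gabrq and 0 for Pcdhgc4, leaving out DESeq2, which gave these 6 genes no adjusted p.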

How the results depend on the processing

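The 2997 genes called between regions in knockin polysomes became 2623 to 3458 under the alternatives and 2056 to 3005 with a library left out (2056 without DS replicate 3). The labels do not say whether Acb and DS libraries with the same number share mice, and they were not treated as paired. Correlations between same-numbered libraries were -0.243, -0.00542 and -0.201. These cannot decide the question, since heavy and lysate libraries that pair through the methods gave -0.0364 to 0.0616. The replicate block gave 2623 calls. For Rps6 the log2 difference ranged from -0.00696 (without Acb replicate 1) to 0.0919 (without Acb replicate 3), and was 0.588 (adjusted p 0.0115) with the transcript length trend removed and 0.586 (adjusted p 0.0336) with the replicate block added to that. Of 294 values for the named genes, 290 kept direction and side of the threshold, as did 91 of 134 for interaction genes, and 62 of 518 list values moved by over 1.5 times.

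Wild-type polysomes gave 2247 calls with the replicate block and 2393 with block and transcript length trend, and 663 to 1392 with a library left out (663 without Acb replicate 3, 804 without Acb replicate 2). The share of higher calls went from 57.9 to 46.5% with the transcript length trend removed, 47.3% with the coding length trend removed and 45.2% with block and trend. The 1693 calls in knockin lysates became 1603 to 1876 under the alternatives and 1049 to 1554 with a library left out (1049 without DS replicate 2, 1113 without DS replicate 1).

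The genotype interaction gave 0 calls with the filterByExpr filter, 353 without a filter beyond 1 read, 236 with DESeq2, 26 and 6 with the transcript and the coding length trend removed, 479 with the replicate block, 355 with block and transcript length trend, and 0 to 183 with a library left out. The fraction interaction gave 624 and 345 calls with the transcript and the coding length trend removed, 1104 with the replicate block, whose lysates pair through the methods, and 477 to 1434 with a library left out, with positive shares of 32.9% against 16.5 and 20.4% with the transcript length trend removed without and with the block. The cause of these shifts was not tested. With 3 pools a region, genes with few reads carry wide errors, and a gene that did not pass is not shown to be equal between regions.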
